A study of Mus musculus with 33 samples.

Results

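To ask where H3K27me3 lay in differentiating cells with and without Uhrf1, the domain lists of week 1 embryoid bodies (EBs) were compared between the WT and the Uhrf1 KO library. The WT list held 6673 domains and the KO list 6600, together 13273 of the 318036 regions in the 25 lists of the series. All domains of both lists were taken. A domain was called shared when it overlapped a domain of the other list by at least 1 bp, and WT-only or KO-only when it did not. Both groups were mouse embryonic stem cells (mESC), which the study names as E14 and Uhrf1 KO cells. Both were grown in serum with leukemia inhibitory factor and then differentiated as EBs from hanging drops. One group carried intact Uhrf1 and the other the Uhrf1 knockout, with no other allele or agent named in the labels. Chromatin of both was recovered with an anti-H3K27me3 antibody from Millipore at week 1 of differentiation. Each group is 1 library from 1 cell line, so differences between the lists cannot be set against replicate error and cannot be told apart from differences between the cultures, lines or libraries. Values in brackets are the bounds of 95% intervals, by Wilson's method for shares and by Newcombe's for their differences. They cover counting over domains or genes only, and neighbouring domains and genes are not independent.

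H3K27me3, the trimethylated lysine 27 of histone H3, is written by the Polycomb complex PRC2 and marks genes held silent. In stem cells and early embryos it lies over CpG-rich promoters of developmental regulators, often together with H3K4me3, the mark of promoters open to transcription, a state called bivalent. EBs are aggregates in which stem cells start to form cells of the 3 germ layers, and Polycomb marks are then removed from genes of the lineage chosen and kept or spread at the others. Uhrf1 binds hemimethylated DNA and methylated H3K9, and brings Dnmt1 to newly copied DNA.

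The promoters below are examples of the 3 outcomes, 2 from each of the first 2 and 1 from the last. They were taken from the developmental transcription factor genes with the longest domains near them. Their CpG counts do not stand for the classes, whose medians are given further on. Each runs from 250 bases before to 50 bases from the annotated start onward, 5′ to 3′ along the gene, in the mm9 (NCBIM37) build, with every CpG in capitals. Hoxb1 (chr11:96226816-96227115, plus strand) and Hoxb13 (chr11:96055380-96055679, plus strand) lay in domains of both lists and held 8 and 16 CpGs. Isl1 (chr13:117099847-117100146, minus strand) and Foxp2 (chr6:14851099-14851398, plus strand) lay near a WT domain only and held 37 and 19 CpGs. Foxi1 (chr11:34108040-34108339, minus strand) lay near a KO domain only and held 6 CpGs.
Hoxb1: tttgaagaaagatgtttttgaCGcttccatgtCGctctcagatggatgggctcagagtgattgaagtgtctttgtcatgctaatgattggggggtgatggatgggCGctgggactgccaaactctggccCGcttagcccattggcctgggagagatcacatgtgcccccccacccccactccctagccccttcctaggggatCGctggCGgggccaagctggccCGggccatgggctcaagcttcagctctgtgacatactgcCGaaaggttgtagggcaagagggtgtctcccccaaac
Hoxb13: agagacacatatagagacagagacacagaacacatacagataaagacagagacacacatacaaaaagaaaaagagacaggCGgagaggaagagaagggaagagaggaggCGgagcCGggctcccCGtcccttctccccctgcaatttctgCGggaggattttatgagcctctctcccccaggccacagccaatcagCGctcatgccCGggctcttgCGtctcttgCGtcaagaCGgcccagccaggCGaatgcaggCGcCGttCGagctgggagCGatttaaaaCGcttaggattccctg
Isl1: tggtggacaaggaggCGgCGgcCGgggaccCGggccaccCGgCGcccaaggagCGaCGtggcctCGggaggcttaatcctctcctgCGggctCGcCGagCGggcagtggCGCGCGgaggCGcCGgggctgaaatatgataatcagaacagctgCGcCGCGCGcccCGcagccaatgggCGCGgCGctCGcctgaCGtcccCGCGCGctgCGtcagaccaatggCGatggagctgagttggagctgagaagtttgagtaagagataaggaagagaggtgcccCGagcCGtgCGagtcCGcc
Foxp2: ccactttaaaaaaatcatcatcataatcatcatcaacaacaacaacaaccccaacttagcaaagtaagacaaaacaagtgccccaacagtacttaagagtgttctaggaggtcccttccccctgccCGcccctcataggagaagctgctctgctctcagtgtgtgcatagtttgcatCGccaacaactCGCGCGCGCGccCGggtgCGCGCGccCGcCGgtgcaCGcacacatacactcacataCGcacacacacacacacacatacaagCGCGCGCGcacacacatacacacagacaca
Foxi1: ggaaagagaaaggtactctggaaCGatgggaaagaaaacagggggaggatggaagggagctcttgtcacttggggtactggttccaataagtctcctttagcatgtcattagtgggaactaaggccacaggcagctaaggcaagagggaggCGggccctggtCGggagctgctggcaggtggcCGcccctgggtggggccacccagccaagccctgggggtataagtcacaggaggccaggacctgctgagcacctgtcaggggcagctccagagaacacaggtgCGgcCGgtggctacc

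Shared domains were the long ones. In the WT list 3997 of 6673 domains were shared (59.9%, 58.7 to 61.1), and in the KO list 3392 of 6600 (51.4%, 50.2 to 52.6). The median length was 14 kb for shared and 5.25 kb for WT-only domains of the WT list, and 23.4 kb for shared and 10.8 kb for KO-only domains of the KO list. These lengths follow in part from the rule, because a long domain meets another more easily, and they are given with no test. Of the shortest 5th of WT domains 27.4% were shared and of the longest 90.8%, and in the KO list the same shares were 24.8% and 84.2%. Shared domains made up 80.7 of the 101.3 Mb covered in WT and 132.6 of the 180.1 Mb covered in KO. When a KO domain had to be at least 50% covered by WT domains to count as shared, 31.2% did.

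The read level separated the classes far less than length. The deposited mean read count per bin had a median of 12.3 in shared and 12.04 in WT-only domains, and of 9.98 in shared and 9.47 in KO-only domains. Ranked within their own list, the median shared domain stood at the 51.6th percentile in WT and the median WT-only domain at the 47.7th, and in KO at the 54.0th and the 45.3rd. Across 5 equal groups of mean count the shared share ran from 57.2% to 63.3% in WT and from 41.4% to 58.3% in KO. Bins were 1.75 kb in WT and 1.8 kb in KO, and scaling of these counts to depth is not given in the sources used here, so levels were not compared between the lists.

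**Figure D1:**
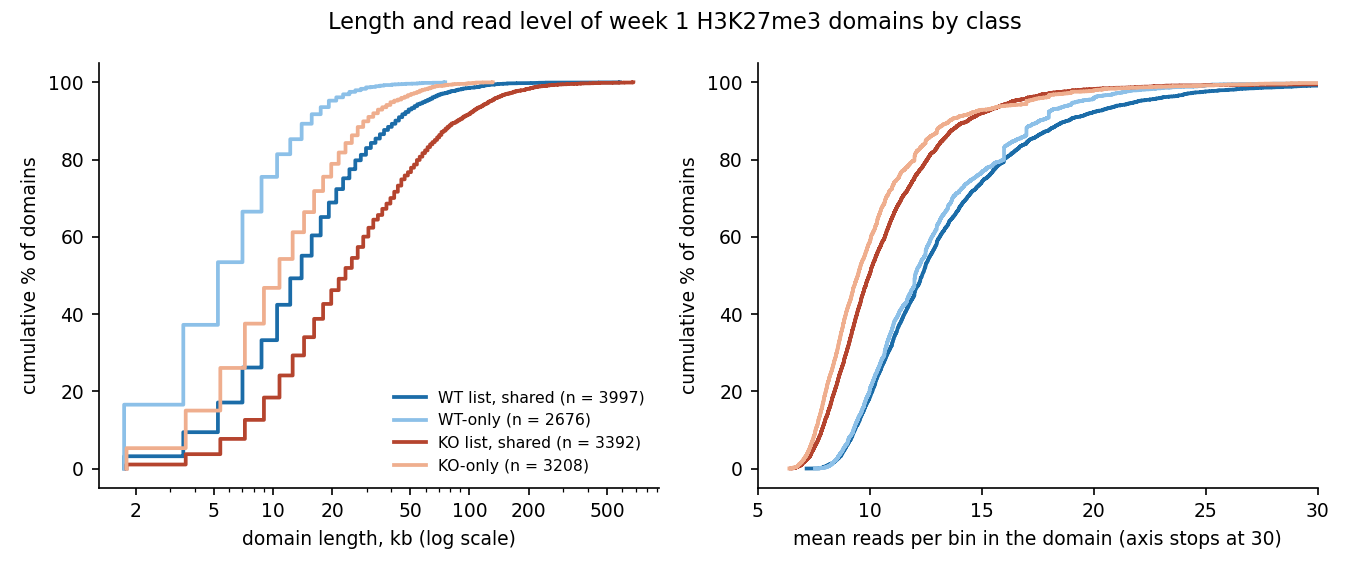
Cumulative percent of domains against domain length in kb (log axis, left) and against the deposited mean reads per bin (right, axis stopped at 30), for shared and WT-only domains of the WT list and shared and KO-only domains of the KO list. The curves of length are far apart, with medians of 14, 5.25, 23.4 and 10.8 kb, while the curves of read level lie close together within each list.

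Few domains present in one list only lay close to a domain of the other. Of WT-only domains 214 of 2676 lay within 10 kb of a KO domain (7.997%, 7.03 to 9.09) and 1417 lay more than 100 kb away (53.0%). Of KO-only domains 163 of 3208 lay within 10 kb of a WT domain (5.08%, 4.37 to 5.90) and 1504 lay more than 100 kb away (46.9%). The shares that scattered positions would give were not computed, so these values are not read as a trait of the classes.

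Where a WT and a KO domain met one to one, the KO domain was usually the longer. Among 2846 such pairs the median length was 12.25 kb in WT and 19.8 kb in KO, and the KO domain was longer in 2030 (71.3%, 69.6 to 73.0). It reached beyond the WT domain on both sides in 41.4% of pairs, against 14.7% for the reverse. In the shortest 5th of pairs by WT length the KO domain was a median 3.09 times as long, with medians of 5.25 kb in WT and 12.6 kb in KO. In the longest 5th it was 1.03 times as long, with medians of 36.75 and 41.4 kb. Choosing pairs by WT length favours longer partners for the short ones, so this gradient is a description. Some KO domains joined several WT domains. Of KO domains 461 (6.98%) spanned 2 or more WT domains, 140 of them on chromosome 11, with 49.3 Mb or 27.4% of the covered length, whereas 54 WT domains spanned 2 or more KO domains. The KO domain that joined most ran over chr11:80640001-81068400 (428.4 kb), held the start of Spaca3 and met 10 WT domains. Another of 459 kb on chromosome 11 held Tbx2 and Tbx4, T-box regulators of heart and limb, and met 7 WT domains.

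Chromosomes 8 and 11 stood apart. Over the other 17 autosomes the WT list held 1.495 to 2.72 domains per Mb and the KO list 1.69 to 3.18. Chromosome 11 held 7.71 per Mb in WT and 7.17 in KO. Chromosome 8 held 6.05 per Mb in WT (797 domains) but 2.47 in KO (325 domains). On chromosome 8 551 of the 797 WT domains were WT-only (69.1%), where the other 17 autosomes had 27.4% to 47.3%. In the one-to-one pairs of chromosome 8 the KO domain was longer in 43.5% (36.4 to 50.9), against 72.5% (70.6 to 74.2) on the chromosomes other than 8 and 11. The WT-only domains of chromosome 8 had a median of 6.57 CpGs per kb, below the mean of 9.04 for that chromosome. Of these domains 94.4% overlapped the WT mESC H3K9me3 list, which covered 81.0% of chromosome 8 against 32.8% of the chromosomes other than 8 and 11. The WT list also covered 76.2% of chromosome 11. The KO mESC H3K9me3 list covered 96.3% of chromosome 11, 30.6% of chromosome 8 and 38.7% of the chromosomes other than 8 and 11. H3K4me3 domains at week 1 numbered 9.58 per Mb on chromosome 8 in WT and 7.07 in KO, and 13.2 and 16.2 on chromosome 11, against 5.01 to 9.26 in WT and 5.36 to 9.29 in KO on the other 17 autosomes. The input libraries were not analysed, so the DNA copy number of these chromosomes was not examined, and its part in domains per Mb and in the classes was not tested. Without both chromosomes, 62.0% of WT and 49.8% of KO domains were shared.

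**Figure D2:**
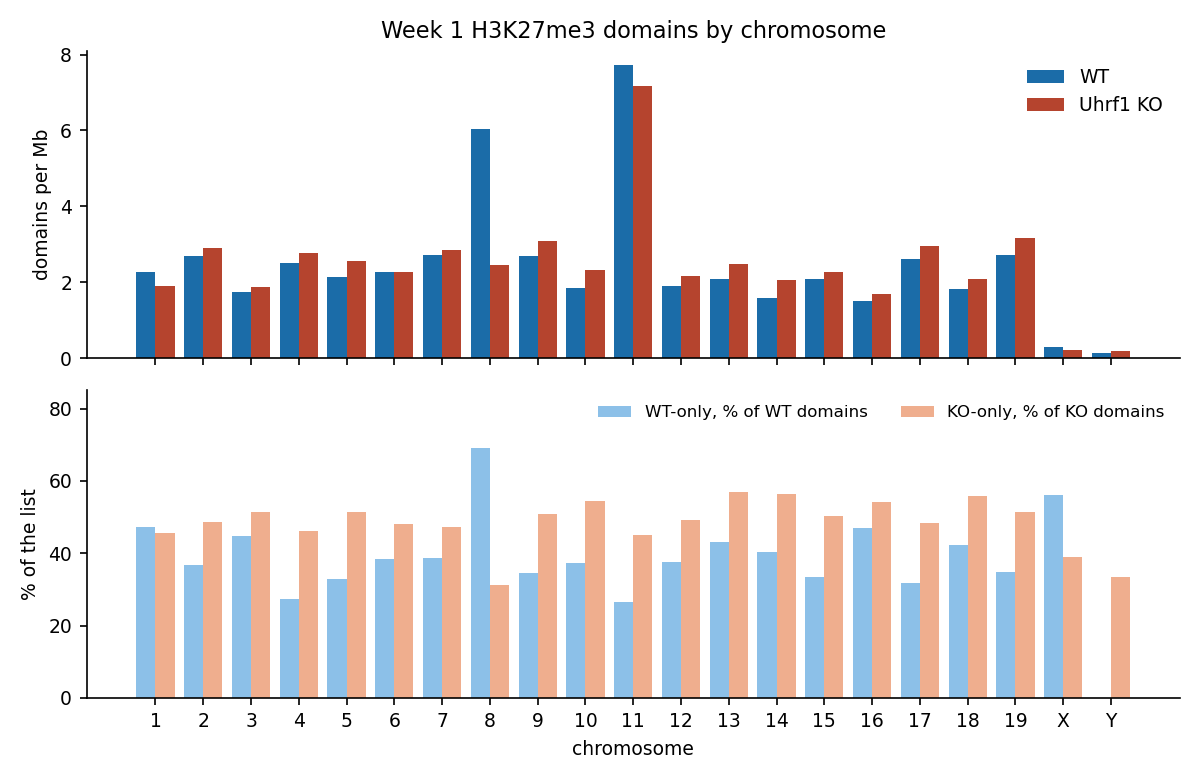
Domains per Mb of each chromosome (top) and the percent of each list that overlapped no domain of the other (bottom), for the WT and the Uhrf1 KO library at week 1. Chromosome 11 is high in both lists, with 7.71 and 7.17 domains per Mb, and chromosome 8 only in WT, with 6.05 against 2.47.

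Shared domains held a gene start more often than the others. A protein-coding gene start fell in 50.5% of shared and 18.2% of WT-only domains of the WT list, and in 58.5% of shared and 12.1% of KO-only domains of the KO list. Of WT-only domains 55.1% touched no protein-coding gene, and of KO-only domains 51.2%, against 28.5% and 23.9% of shared domains. KO-only domains were the most often inside a gene body without its start (36.7%, 35.1 to 38.4, against 26.7% of WT-only domains). The share over a start without chromosomes 8 and 11 was 53.5%, 22.1%, 60.4% and 12.4% in the order given above. Longer domains hold more starts by length alone. Shared domains of the WT list held 2566 starts in 80.7 Mb and WT-only domains 534 in 20.5 Mb. Without chromosomes 8 and 11 these were 2022 in 58.5 Mb and 454 in 13.3 Mb. Shared domains of the KO list held 2938 starts in 132.6 Mb and KO-only domains 436 in 47.5 Mb. By covered length the 2 WT classes were thus close without those chromosomes, and KO-only domains held far fewer starts than shared ones.

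Seen from the genes, a promoter was called marked when a domain lay within 5 kb of its start. Of 22367 protein-coding genes 20.5% were marked in WT and 21.1% in KO, with 14.8% in both (3317 genes), 5.67% in WT only (1268) and 6.29% in KO only (1407). With a domain over the start itself these shares were 10.2%, 3.65% and 4.88%, and without chromosomes 8 and 11 they were 13.3%, 5.17% and 5.67%. Of the promoters marked in KO only, 557 (39.6%, 37.1 to 42.2) lay at a KO domain that met a WT domain farther away. The same held for 180 (14.2%, 12.4 to 16.2) of those marked in WT only.

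Promoters of developmental transcription factors were mostly marked in both lists. Of 277 such genes, from the homeobox, Pax, Sox, Forkhead, T-box, Gata and basic helix-loop-helix families, 230 were marked in both lists (83.0%, against 14.8% of all genes), 5 in WT only (1.81%, against 5.67%) and 4 in KO only (1.44%, against 6.29%), and 38 were marked in neither (13.7%, against 73.2%). Without chromosomes 8 and 11 the first 3 shares were 82.4%, 2.09% and 0.84%. When a domain had to lie over the start itself, the shares were 79.8%, 2.17% and 3.25%, and with the better-scoring 50% of each list 77.3%, 4.69% and 2.53%. For comparison, 5 of 79 ribosomal protein genes, which every cell transcribes, were marked in either list. Domain lists hold no measure of the Uhrf1 deletion itself, so the genotype was taken from the labels.

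The Hox genes, which set position along the body axis, were marked in both lists at 39 of 39. All 4 clusters were covered over 100% of their length in both libraries. The longest domain of either list was that of HoxB, 582.75 kb in WT (chr11:95942001-96524750) and 682.2 kb in KO (chr11:95941801-96624000). HoxC lay in a WT domain of 456.75 kb and a KO domain of 455.4 kb, HoxA in 206.5 and 201.6 kb, and HoxD in 155.75 and 144 kb. Hox domains were therefore longer in KO only at HoxB, which is on chromosome 11. H3K4me3 covered less of each cluster in KO than in WT, 22.1% against 48.6% of HoxA, 35.4% against 61.6% of HoxB, 9.37% against 22.8% of HoxC and 9.04% against 51.3% of HoxD. The same 4 clusters were also covered over 100% in the H3K27me3 lists of mESC and of weeks 2 and 3 in both genotypes.

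Among the other homeobox genes 102 of 106 were marked in both lists. Their domains had a median of 43.75 kb in WT and 70.2 kb in KO and were longer in KO at 76 of the 102, a share near that of all genes marked in both (2443 of 3317, with medians of 17.5 and 30.6 kb). Lhx5, a LIM homeobox gene of the forebrain, lay in 224 kb in WT and 279 kb in KO. Lmx1b, which patterns limbs and dopaminergic neurons, lay in 54.25 and 253.8 kb, and Tlx1, needed for the spleen, in 61.25 and 248.4 kb. The exceptions were these. Cdx4, a caudal-type regulator of Hox genes, and Isl1, a LIM homeobox gene of motor neurons and heart progenitors, were marked in WT only, and Meox1, of the somites, in KO only.

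Pax genes, regulators of eye, kidney and neural tube, were marked in both lists at 8 of 9. Pax2 lay in 315 kb in WT and 349.2 kb in KO, and Pax3 in 134.75 and 160.2 kb. Proneural genes, which start neuron formation, were marked in both at 18 of 19, with Neurog1 in 119 and 313.2 kb. T-box genes were marked in both at 12 of 17 and Sox genes at 12 of 18, with medians of 31.5 and 36.9 kb for the Sox genes, whose longest domains were at Sox9 of cartilage and testis (78.75 and 282.6 kb). Forkhead genes were marked in both at 24 of 43, mesodermal helix-loop-helix genes at 12 of 20 and Gata genes at 3 of 6. Gata4, a heart and endoderm factor, lay in 63 kb in each list.

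The 9 developmental factors marked in 1 list differed in their domains. In WT, Isl1 lay in 21 kb, Foxp2, a forkhead gene of the brain, in 15.75 kb and Cdx4 in 10.5 kb, whereas Sox5 had a domain of 3.5 kb and Foxa3, a liver factor, one of 1 bin, both just inside the gene from the start. In KO, Foxi1, a forkhead gene of the inner ear, lay at a 210.6 kb domain and Meox1 at one of 192.6 kb. Both of these domains also met WT domains, which lay farther from the starts. Tbx19, of the pituitary, lay in 19.8 kb and Mesp2, of the forming somites, in 12.6 kb of domains without a WT counterpart.

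**Figure D3:**
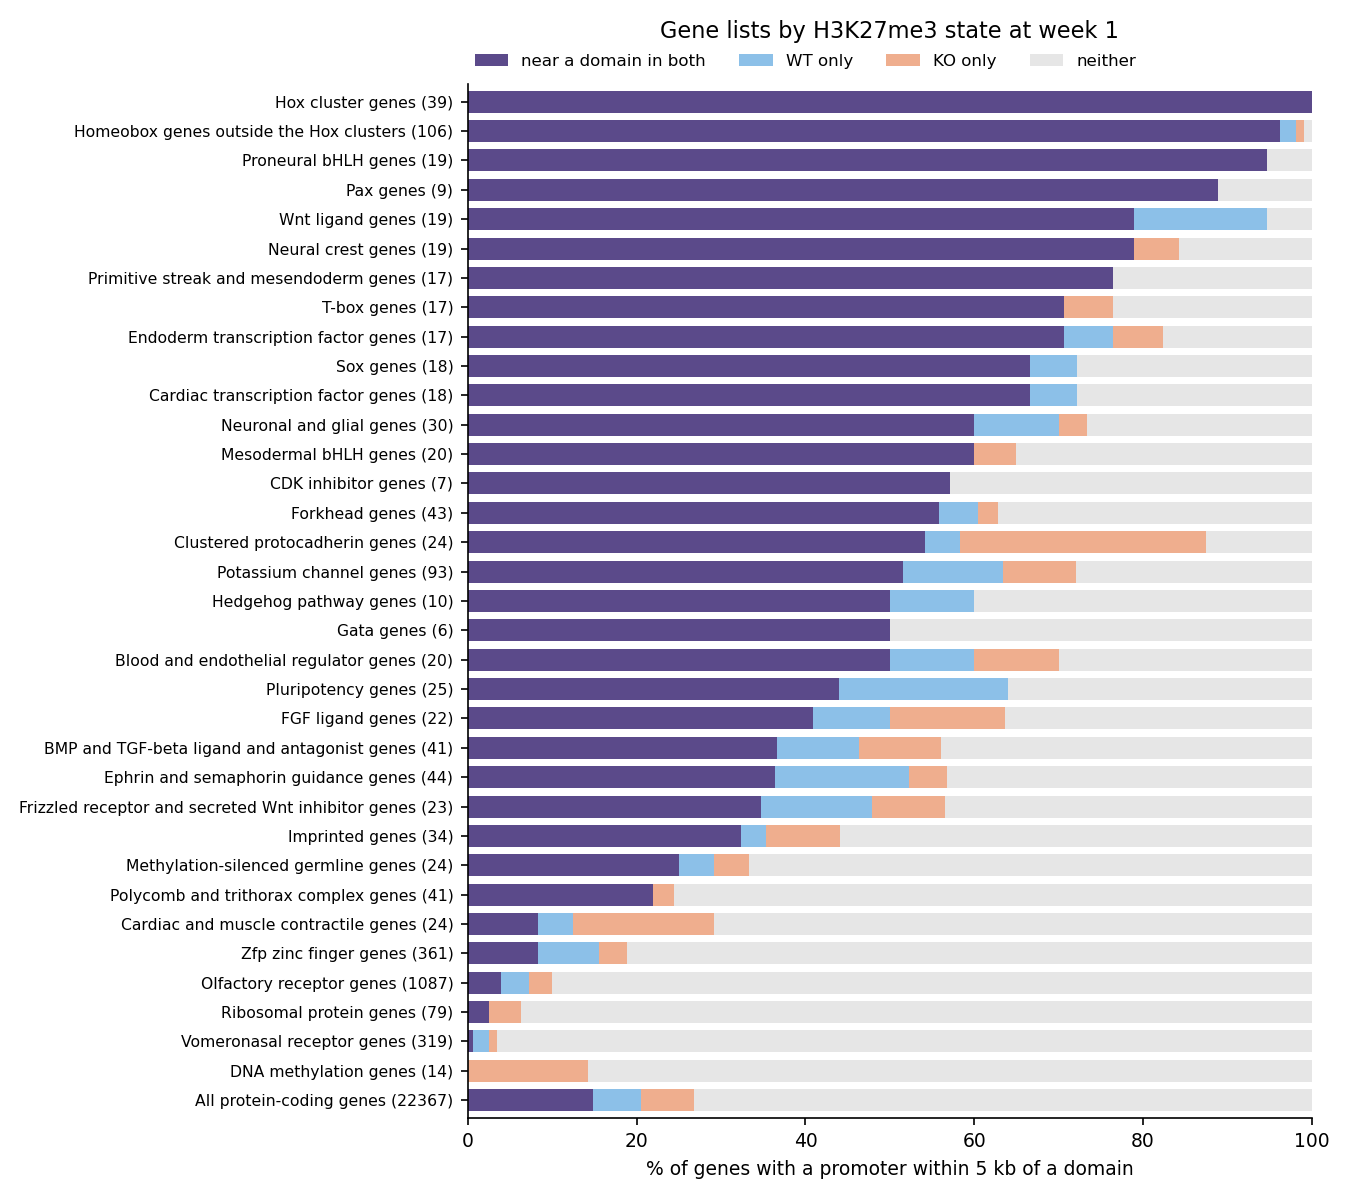
Percent of the genes of each list with a promoter within 5 kb of a domain in both lists, in WT only, in KO only or in neither at week 1, with the number of genes in brackets. Hox, homeobox, proneural and Pax genes are marked in both at 88.9% to 100%, against 14.8% of all protein-coding genes in the lowest bar.

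Outside transcription factors the lists varied more between the genotypes. Of 19 Wnt ligand genes 15 were marked in both, 3 in WT only (Wnt2, Wnt2b and Wnt5a; 15.8%, against 5.67% of all genes) and 0 in KO only. Wnt7b lay in 26.25 kb in WT and 165.6 kb in KO. Of 44 ephrin, semaphorin and other axon guidance genes 16 were marked in both, 7 in WT only (15.9%, against 5.67% of all genes) and 2 in KO only. Ligands and antagonists of the BMP and TGF-beta family were marked in both at 15 of 41 (36.6%) and in 1 list at 4 each (9.76%, against 5.67% of all genes in WT only and 6.29% in KO only). Bmp4, a ventral signal, and its antagonist Chrd were marked in WT only, and Bmp10, a heart ligand, in KO only. FGF ligands were marked in both at 9 of 22 (40.9%, against 14.8% of all genes). Fgf3 and Fgf15 were marked in WT only (9.09%, against 5.67%), and Fgf1, Fgf6 and Fgf23 in KO only (13.6%, against 6.29%). The hedgehog ligands Shh, Ihh and Dhh were marked in both. The effector Gli2 was marked in WT only, 1 of 10 hedgehog pathway genes (10%, against 5.67% of all genes). Potassium channel genes were marked in both at 48 of 93 (51.6%, against 14.8% of all genes), in WT only at 11 (11.8%, against 5.67%) and in KO only at 8 (8.60%, against 6.29%).

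Genes of differentiated heart and muscle were near a WT domain at 12.5% (20.5% of all genes) and near a KO domain at 25% (21.1% of all genes). Of 24 contractile genes 2 were marked in both (Acta1 and Ryr2), 1 in WT only (Tnni3) and 4 in KO only (16.7%, against 6.29% of all genes). These 4 were Myl2, a ventricular myosin light chain, in a domain of 97.2 kb, Myl7, the atrial light chain, in 30.6 kb, Mybpc3, a thick filament protein, in 27 kb, and Actn2, of the sarcomere disc, in 9 kb. Without chromosomes 8 and 11, which removes Myl7, 3 of 21 were marked in KO only (14.3%, against 5.67% of all genes). Cardiac transcription factors were marked in both at 12 of 18 (66.7%, against 14.8% of all genes). Their median domains were 52.5 kb in WT and 57.6 kb in KO. The longest of these was at Prdm16, with 40.25 and 612 kb. That KO domain met 7 WT domains and held 5 gene starts, and 40.25 kb is the WT domain near the Prdm16 start alone. Neuronal and glial genes were marked in both at 18 of 30 (60%, against 14.8% of all genes). They were marked in WT only at 3 (10%, against 5.67%) and in KO only at 1 (3.33%, against 6.29%). Gad1, which makes GABA, lay in 15.75 kb in WT only, as did Stmn2 in 14 kb and Snap25 in 7 kb. Th, of dopamine synthesis, was marked in KO only, at a KO domain of 151.2 kb. That domain was a shared one, and its WT overlap lay more than 5 kb from the Th start. Of the clustered protocadherins, neuronal adhesion genes that lie side by side, 13 of 24 were marked in both, 1 in WT only and 7 in KO only (29.2%, against 6.29% of all genes). Neighbours in such a cluster share domains.

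Pluripotency genes were marked in WT only at 5 of 25 (20%, against 5.67% of all genes) and in KO only at 0. Pou5f1, which encodes Oct4, lay in a WT domain of 5.25 kb (chr17:35642251-35647500), Tdgf1, a Nodal co-receptor, in 12.25 kb, and Sall1 in 8.75 kb. Dppa3 and Klf2 did not lie in their domains, of 3.5 kb and of 1 bin of 1.75 kb, which ended upstream of the start but within 5 kb. Klf2 and Sall1 are on chromosome 8, and 3 of 22 were marked in WT only without chromosomes 8 and 11 (13.6%, against 5.17% of all genes). A further 11 were marked in both, led by Gbx2 (99.75 kb in WT, 136.8 kb in KO) and Utf1 (87.5 and 133.2 kb). Nanog was marked in neither list.

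Of 14 DNA methylation genes 12 were marked in neither list (85.7%, against 73.2% of all genes), Uhrf1 among them, and 2 in KO only (14.3%, against 6.29%). Dnmt3a, a de novo methyltransferase, lay at a KO domain of 14.4 kb (chr12:3792601-3807000), and its cofactor Dnmt3l at one of 19.8 kb (chr10:77493601-77513400). In the H3K27me3 lists of the other stages, of either genotype, neither promoter was marked. Polycomb and trithorax genes were marked in both at 9 of 41 (21.95%, against 14.8%) and in neither at 75.6%, near the 73.2% of all genes. Those marked in both included Cbx2 and Cbx8 of PRC1, and Cbx7 was marked in KO only. Among imprinted genes 11 of 34 were marked in both (32.4%), 1 in WT only and 3 in KO only (8.82%, against 6.29% of all genes). Ndn and Magel2 shared 1 KO domain of 30.6 kb, and Ins2 lay at one of 18 kb. Germline genes known to be silenced by DNA methylation were marked in both at 6 of 24 and in 1 list at 1 each (4.17%, against 5.67% and 6.29% of all genes). Zinc finger genes of the Zfp series were marked in WT only at 26 of 361 (7.20%, against 5.67% of all genes) and in KO only at 12 (3.32%, against 6.29%). Without chromosomes 8 and 11 these were 18 of 314 (5.73%, near the 5.17% of all genes) and 10 (3.18%, against 5.67%). Olfactory receptor genes were marked in both at 43 of 1087 (3.96%, against 14.8% of all genes). A further 36 were marked in WT only (3.31%, against 5.67%) and 29 in KO only (2.67%, against 6.29%). The share marked in both was 1.396% (14 of 1003) without chromosomes 8 and 11, against 13.3% of all genes.

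The 12 genes that the study picked from this series, some on the mESC libraries and some on the EB libraries, are no independent evidence of direction. They were marked in both at 8, in WT only at 3 and in neither at 1. Hand2 of the heart and limb lay in 57.75 kb in WT and 52.2 kb in KO, Msx2 of bone and neural crest in 19.25 and 54 kb, and Tbx5 of the heart in 145.25 and 192.6 kb. Nkx2-5, a heart factor, lay in 49 and 34.2 kb, Otx2 of the forebrain in 29.75 and 39.6 kb, and Tubb3, a neuronal tubulin, in 7 and 37.8 kb. The KO domain was the shorter at Nes, a neural progenitor filament (35 and 5.4 kb), and at Neurod1, a neuron factor (31.5 and 9 kb). At Nes the KO domain ended 1.6 kb upstream of the start, which the WT domain covered. Farther downstream of Nes both lists held a domain, from 17.25 to 69.75 kb in WT and from 16.4 to 77.6 kb in KO. Klf2, Sall1 and Wnt2b were marked in WT only and Ednra, an endothelin receptor, in neither. The KO domain was thus longer at 4 of the 8.

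**Figure D4:**
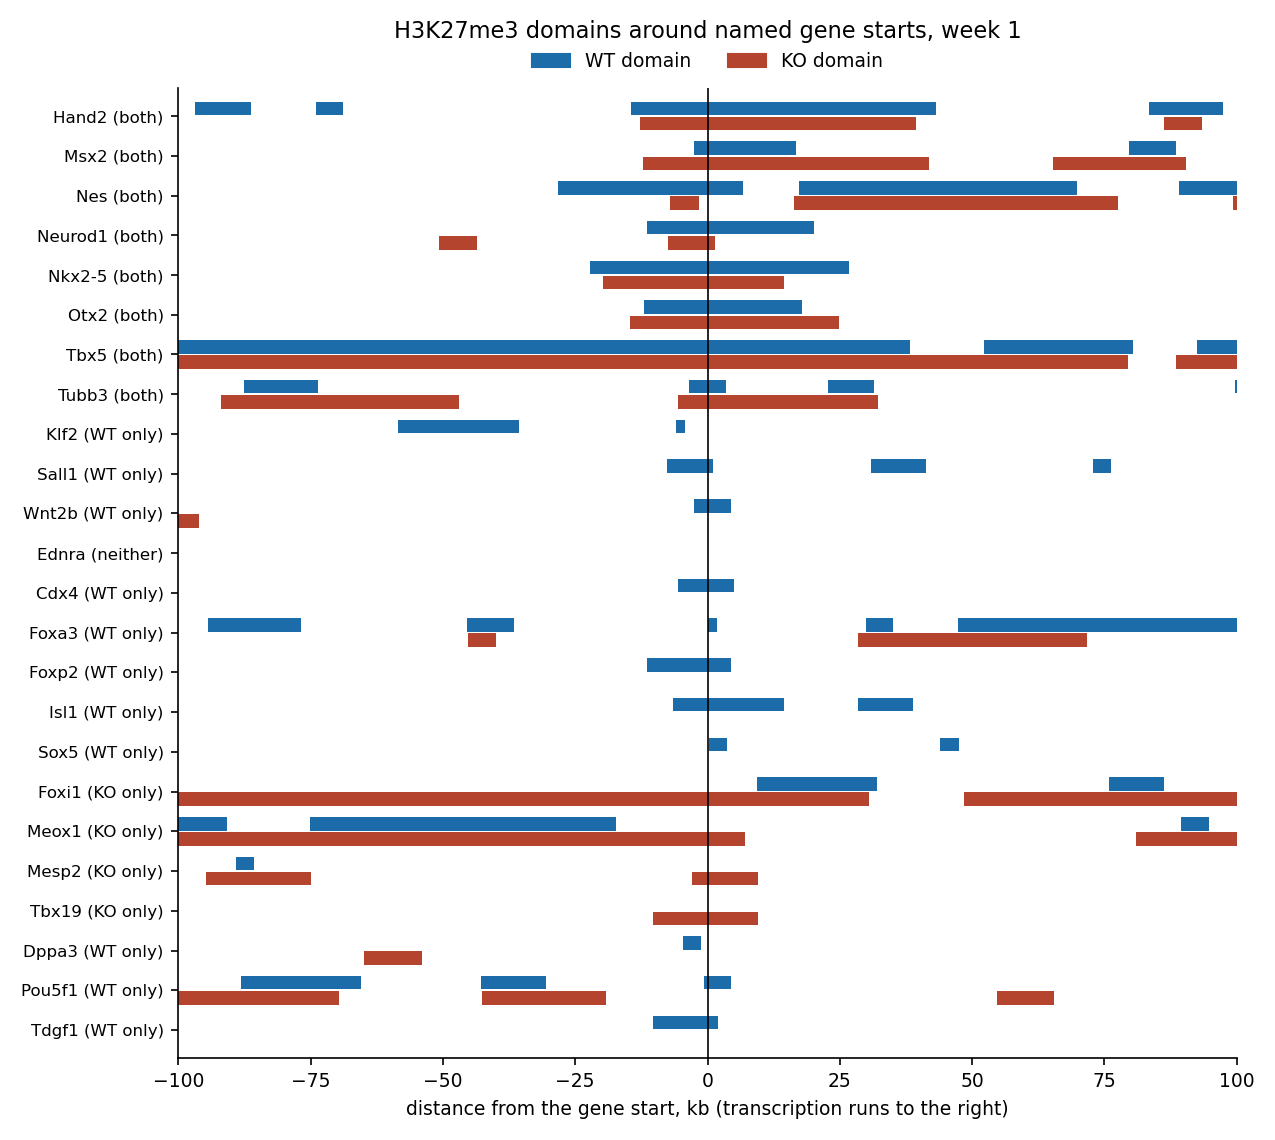
Domains of the WT (upper bar) and the Uhrf1 KO list (lower bar) within 100 kb of the start of 24 genes, with distance from the start in kb along the direction of transcription. From the top are the 12 genes the study picked, the 9 developmental transcription factors marked in 1 list, and 3 further pluripotency genes marked in WT only; at Foxi1 and Meox1 the KO domain runs on to WT domains away from the start.

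H3K4me3, a measurement from other libraries, differed between the classes. At promoters, the number of all genes within 2 kb of an H3K4me3 domain was 13885 in WT (62.1%) and 12754 in KO (57.0%), and 6.23% had one in WT and not in KO. Among promoters that kept H3K27me3 in both lists and had H3K4me3 in WT, 693 of 2427 had none in KO (28.6%, 26.8 to 30.4). That share was 16.3% (14.1 to 18.7) of promoters marked by H3K27me3 in WT only, 12.9% of those marked in KO only and 4.63% (4.23 to 5.07) of those marked in neither. It went from 19.8% (16.5 to 23.5) in the shortest 5th of WT H3K27me3 domains to 36.9% (32.7 to 41.3) in the longest. The KO H3K4me3 list covered 73.4 Mb against 107.0 Mb in WT, and the part of this shorter list in the share was not tested.

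By family, the absence of H3K4me3 in KO was uneven. Of 106 homeobox genes outside the clusters 89 had H3K4me3 in WT and 43 in KO. The counts were 7 and 1 for the 9 Pax genes, 10 and 4 for the 19 proneural genes, 13 and 6 for the 19 Wnt ligands, and 15 and 5 for 17 genes of the primitive streak and mesendoderm. T, the founding T-box gene of the streak, Nodal and Mixl1 were among these and kept H3K27me3 in both lists. Sox genes had 16 and 14, endoderm factors 16 and 14, cardiac transcription factors 17 and 15, and Gata genes 5 and 5. Over all 277 developmental factors 84 had H3K4me3 in WT and not in KO (30.3%, against 6.23% of all genes) and 3 the reverse (of all genes 1.18% had the reverse).

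At domains, 62.6% of shared and 34.3% of WT-only domains overlapped WT H3K4me3, a difference of 28.3 points (25.9 to 30.6). In the KO list 54.5% of shared and 15.8% of KO-only domains overlapped KO H3K4me3, a difference of 38.7 points (36.6 to 40.8). Length enters both, and at the midpoint of each domain the differences were 7.70 and 8.61 points. The midpoints of WT-only domains lay in WT H3K4me3 domains at 19.99% (the list covers 4.03% of the genome), and those of KO-only domains in KO H3K4me3 domains at 2.77% (the list covers 2.76%). Midpoints of KO-only domains were in the WT H3K4me3 list at 4.15%, again near its coverage. Without chromosomes 8 and 11 the domain differences were 26.95 and 38.6 points. When at least 50% of a domain had to be covered by H3K4me3, the first difference was -1.39 points and the second 2.87. For the better-scoring 50% of each list they amounted to 2.89 and 19.6 points, and within 5 groups of equal length 15.8 and 36.5.

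In the WT lists of other stages, WT-only domains were found more often than KO-only domains, and in the KO lists both classes were close in mESC and at week 3 and KO-only domains were found more often at week 2. Midpoints of WT-only domains lay in the WT H3K27me3 lists of mESC, week 2 and week 3 at 66.1%, 60.2% and 64.5%, where those lists cover 36.1%, 43.9% and 29.8% of the genome. The same domains lay in the KO lists of these stages at 5.38%, 36.3% and 34.7%, with 3.17%, 17.6% and 15.8% covered. KO-only midpoints lay in the KO lists at 6.42%, 52.4% and 31.8% and in the WT lists at 47.8%, 37.1% and 52.6%. Away from chromosomes 8 and 11, WT-only midpoints lay in the WT lists at 59.8%, 55.1% and 58.9% and KO-only midpoints at 44.5%, 35.3% and 52.8%. In all 3 other WT lists together lay 51.6% (50.04 to 53.1) of shared midpoints of the WT list, 42.0% (40.1 to 43.8) of WT-only and 22.9% (21.5 to 24.4) of KO-only midpoints.

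By whole domains, shared minus WT-only overlap with the WT lists came to 8.37 points in mESC (6.17 to 10.6) and to 0.86 points in the second week (-1.51 to 3.24), then to 17.5 in the third (15.4 to 19.6). Without chromosomes 8 and 11 these were 13.3, 7.43 and 24.3 points, and within 5 groups of equal length -0.64, -11.3 and 8.36. The mESC and week 2 values therefore turn with the setting. Shared minus KO-only overlap with the KO lists came to 12.9 points in mESC (11.3 to 14.5), with 22.7 in the second week (20.4 to 24.9) and 28.9 in the third (26.5 to 31.2), and within groups of length 7.25, 11.6 and 18.1. At mESC the KO list held 722 domains and limits what can overlap it.

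**Figure D5:**
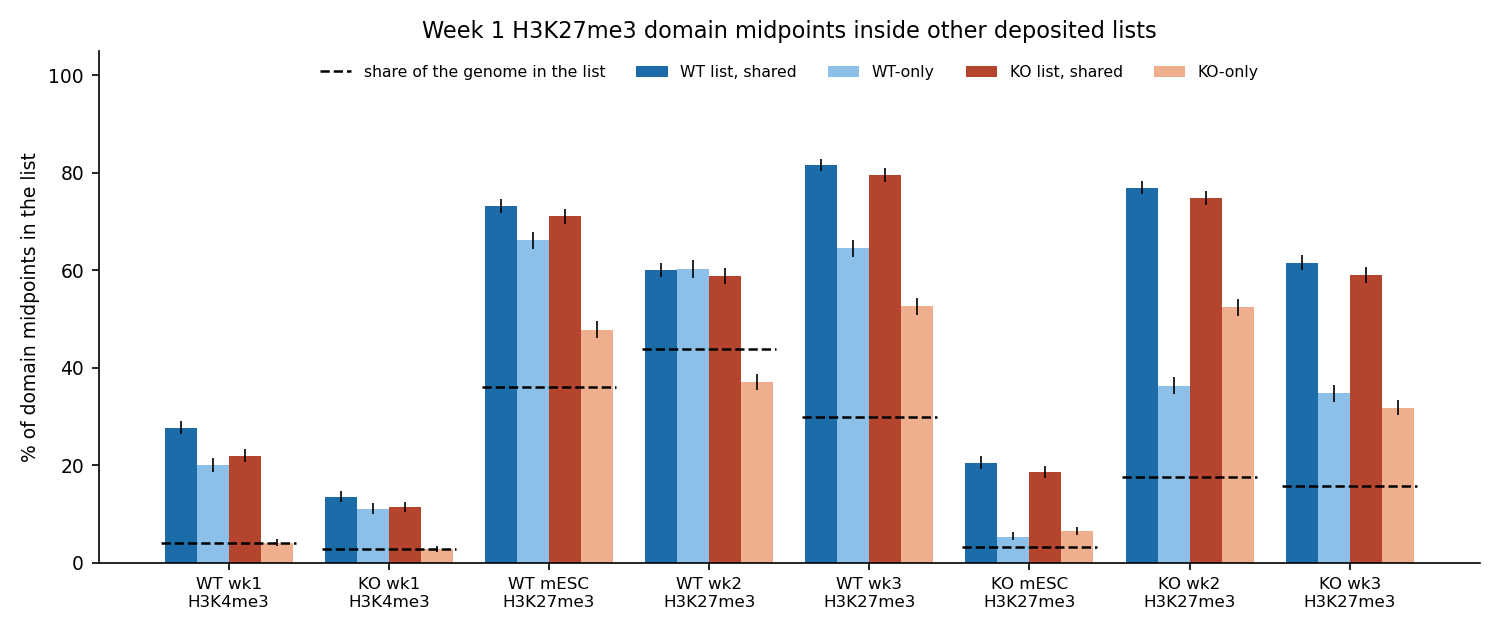
Percent of week 1 H3K27me3 domain midpoints inside other deposited lists, by class, with Wilson 95% intervals, and the share of the genome each list covers (dashed). KO-only midpoints are at the covered share for both week 1 H3K4me3 lists, with 4.15% and 2.77%, and WT-only midpoints are above it for both.

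H3K9me3, the mark of heterochromatin to which Uhrf1 binds, was listed in mESC only. The WT mESC list covered 37.2% of the genome, and 32.8% of the chromosomes other than 8 and 11. It overlapped 39.7% of shared and 55.6% of WT-only domains, a difference of -15.9 points (-18.3 to -13.4). That difference was -12.5 points (-15.2 to -9.80) without chromosomes 8 and 11. Midpoints lay in the list at 32.7% of shared and 53.3% of WT-only domains. Without chromosomes 8 and 11 these were 20.2%, below the coverage there, and 36.9%, slightly above it. In the KO list the WT mESC list overlapped 42.0% of shared and 37.4% of KO-only domains, a difference of 4.60 points (2.24 to 6.96). At midpoints it was -1.06 points, with an interval that spanned 0. Without chromosomes 8 and 11 the whole domains differed by 2.52 points (0.081 to 4.95) and the midpoints by -2.96 (-5.18 to -0.74), so the direction turned with the measure. With the KO mESC list the shared minus KO-only difference was 2.29 points (-0.046 to 4.63). Windows enriched for Uhrf1 in WT mESC cover 5.14% of the genome and overlapped 3.63% of shared and 4.86% of WT-only domains in the WT list, and 5.42% of shared and 4.99% of KO-only domains in the KO list. Midpoints lay in them at 1.43% to 3.03% in the 4 classes. Both lists come from mESC and not from EBs.

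The classes also differed in sequence. The genome holds 8.34 CpGs per kb. Shared domains had a median of 13.5 CpGs per kb in WT and 13.0 in KO, KO-only domains 10.3 and WT-only domains 7.43, or 8 without chromosomes 8 and 11. With only the longer, better supported domains of each list, those above the median score, WT-only domains had 11.2 and KO-only domains 11.4. At promoters the order was another: over the 1 kb around the start the median was 52 CpGs in promoters marked in both, 48 in those marked in WT only, 24 in those marked in KO only and 37 in those marked in neither. Promoters marked in KO only were also the least often near WT H3K4me3, at 47.8% (45.2 to 50.4), against 77.5% of those marked in WT only, 73.2% of those marked in both and 59.9% of those marked in neither.

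Single domains show the extremes of each class. The longest WT-only domain, 75.25 kb at chr18:37838501-37913750, lay in Pcdhgc5, and the other 2 longest, 73.5 kb each, were on chromosome 8, 1 of them over the start of Tex24. The longest KO-only domains were 131.4 kb at chr4:125478001-125609400 with no protein-coding gene, 117 kb at chr4:138328201-138445200 over the secreted phospholipase genes Pla2g2d, Pla2g2e and Pla2g5, and 108 kb on chromosome 11 over 4932411E22Rik. Among WT-only and among KO-only domains the 3 highest mean read counts were each in a domain of 1 bin without a protein-coding start, up to 202.1 reads per bin in a 1.75 kb WT-only domain in Vps45 and up to 57.0 in a 1.8 kb KO-only domain in Akap9. The 5 shared WT domains with the largest loss of length were all on chromosome 8. Among them a 119 kb domain at chr8:107572501-107691500, over the carboxylesterase genes Ces3b and Ces4a, met 45 kb of KO domains, and a 112 kb domain over the start of Cacna1a, a neuronal calcium channel, met 50.4 kb. The 5 with the largest gain were pieces of 1.75 to 77 kb inside 3 KO domains, of 669.6 kb on chromosome 17 over Smoc2 and Dact2, of 612 kb on chromosome 4 over Prdm16, and of 682.2 kb at HoxB.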

How the data were processed

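Per the labels and the study's methods, the authors mapped ChIP-seq reads to mm9 with Bowtie2 2.1.0, normalized read counts to mapped reads, and called histone domains with RSEG against input, 1 list per library. The deposited signal of a domain is the mean read count per bin, and whether it was normalized is not given in the sources used here. The deposited score is a sum over its bins, so it grows with length. For Uhrf1 the authors deposited windows with positions only. Library read totals, which the study's supplement lists, were not used here and the domain lists hold none, and the 8 input samples were not analysed. No list reached past a chromosome end of NCBIM37 (0 of 397 pairs of list and chromosome).

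Python 3.11.15, scipy 1.17.1 and numpy 2.4.6 served for the overlaps and intervals, and matplotlib 3.10.9 for the figures. Overlap calls were tested on simulated data. Genes are the 22367 protein-coding records of the GENCODE annotation of that build, counted by symbol in gene lists (the longest record where a symbol had several), with the annotated gene start. List names absent from the annotation were matched by older symbols (6 names) or left out (4 names). CpGs were counted to the nearest 50 bp. Promoters were near H3K27me3 within 5 kb and near H3K4me3 within 2 kb of a domain, where the study used read counts in the same windows. With 1 library per group there is no test and no p-value. Some list members and sequences are not reported here.

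The lists to compare, gene lists, rules and alternatives were chosen with earlier results of these data known. Alternatives were at least 50% coverage, domains above the median score of every list used, domains of at least 5 kb, base pairs, lists of equal number, domains over the start or the gene body, 5 groups of length, midpoints, and the middle 1 kb for CpGs. Leaving out chromosomes 8 and 11 was added after seeing the data. The named genes were the study's 12, up to 4 members of a list and state with the longest domain, lists and states of at most 10 members in full, and the 3 longest and 3 highest domains of each class. Genes named beyond this rule (Nanog, T, Nodal, Mixl1 and Uhrf1) were chosen after their values were seen.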

Additional observations from a re-analysis of the deposited data

Results flagged for a closer look

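The KO against WT ratio of H3K27me3 covered length had the opposite sign at week 1 and at the other stages. On the log2 scale it was 0.83 at week 1, -3.51 in mESC, -1.32 at week 2 and -0.91 at week 3. The WT list was shortest at week 1, with 101.3 Mb, against 959.7 Mb in mESC, 1165 Mb at week 2 and 791.4 Mb at week 3. The KO list covered 180.1 Mb at week 1, 84.1 Mb in mESC, 466.8 Mb at week 2 and 419.9 Mb at week 3. Each stage has 1 library per genotype, and the difference between stages was not tested. The number of domains on chromosome 8 had a log2 ratio of -1.29 at week 1 and 0.43 at week 2, and on chromosome 11 of -0.11 at week 1 and 0.41 at week 2. In mESC chromosome 8 held 356 WT and 31 KO domains and chromosome 11 held 412 and 155. At week 3 the counts were 305 and 282 and 476 and 306, so the counts of both stages had the sign of week 1. These counts also follow the list totals, and shares of each list differed in direction between stages. Chromosome 8 held 11.9% of the WT and 4.92% of the KO list at week 1, 4.36% and 4.29% in mESC, and 3.21% and 7.58% at week 3. Chromosome 11 held 14.1% and 13.2% at week 1, 5.05% and 21.5% in mESC, and 5.02% and 8.22% at week 3. These differences were not tested either.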

How the results depend on the processing

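No paired analysis was possible because each group is 1 library, and for the same reason no replicate could be left out. Of 98 recomputed values 34 moved by less than their 95% counting interval, 58 moved by more in the same direction and 6 changed sign, and the cause was not tested. At least 50% coverage gave 54.1% of WT and 31.2% of KO domains shared, domains above the median score 64.96% and 55.7%, base pairs 68.7% and 38.6%, leaving out chromosomes 8 and 11 62.0% and 49.8%, and domains of at least 5 kb 66.7% in WT. Promoters marked in WT only, both and KO only were 3.65%, 10.2% and 4.88% with a domain over the start, 4.89%, 14.4% and 6.75% over the gene body, 4.32%, 9.91% and 5.42% above the median score, and 5.17%, 13.3% and 5.67% without chromosomes 8 and 11. With domains of at least 5 kb, 4.65% were marked in WT only and 13.9% in both. Of developmental factors, 4.69% were marked in WT only and 77.3% in both above the median score. The H3K4me3 differences (WT list, then KO list) were -1.39 and 2.87 points with 50% coverage, 2.89 and 19.6 above the median score, 15.8 and 36.5 within groups of length, and 7.70 and 8.61 at midpoints.

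Shared minus WT-only overlap with WT mESC was 2.61 points above the median score, -0.64 within groups of length and 13.3 without chromosomes 8 and 11. With WT week 2 it was -0.81 with 50% coverage, -5.13 above the median score, -11.3 within groups of length, -0.19 at midpoints and 7.43 without chromosomes 8 and 11. With WT week 3 it was 13.2, 8.36 and 24.3 points above the median score, within groups of length and without chromosomes 8 and 11. Shared minus KO-only overlap was 7.25 points with KO mESC within groups of length and 10.6 without chromosomes 8 and 11, 7.81 and 11.6 with KO week 2 above the median score and within groups of length, and 16.2 and 18.1 with KO week 3. CpGs per kb in shared WT, WT-only, shared KO and KO-only domains were 11, 7, 11 and 9 in the middle 1 kb, and 14.04, 8, 13.4 and 10.5 without chromosomes 8 and 11. Above the median score they were 14.03, 11.2 and 11.4 in shared WT, WT-only and KO-only domains, and in domains of at least 5 kb 13.8, 8.48 and 10.6.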
